A study of Mus musculus with 6 samples.

Results

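Epithelial-mesenchymal transition (EMT) is the process by which epithelial cells loosen their junctions and take on features of motile mesenchymal cells. It is driven by a small set of transcription factors. Snai1 and Snai2 encode zinc-finger repressors that bind E-boxes in epithelial genes, Zeb1 and Zeb2 encode zinc-finger homeobox factors that bind the same E-boxes, and Twist1 encodes a basic helix-loop-helix factor. Their best known target is Cdh1, the E-cadherin gene, whose loss alongside a gain of Cdh2 (N-cadherin) and Vim (vimentin) is the classic sign of a completed transition. Esrp1, an RNA-binding protein that sets epithelial splice forms, and Grhl2, a transcription factor that keeps Cdh1 and other junction genes on, act in the opposite sense. TGF-beta is the best known inducer of the transition in mammary epithelial cells.

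These 10 genes were chosen by symbol as the main EMT factors, their marker genes and the factors that hold the epithelial state, and all 10 were found among the 55809 symbols of the deposited count table. The samples were 410.4 cells, a mouse mammary carcinoma line, held for 2 days in DMEM with 0.5% serum. One group was kept in medium holding isolated NETs (neutrophil extracellular traps, the webs of DNA and granule proteins that neutrophils release), and the other in the same medium without them, termed control here. Each group held 3 RNA-seq libraries, and the series asks whether NETs lead to TGF-beta activation in breast cancer cells. The design compares media, so an effect of the NETs cannot be told apart from that of anything else the NET preparation brought in, and no label states whether replicates came from separate cultures. P-values therefore measure only the spread between these libraries.

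Total counts were 31119105 to 52890140 in the NET libraries and 43923391 to 64431811 in the control libraries. All 8 markers of mammary epithelium examined were expressed at 1 CPM (read counts scaled to a common library total) or more. Their summed level was 4928 to 5033 CPM in NET libraries and 4507 to 4838 CPM in control libraries. They moved both ways: Cldn4, Krt7 and Krt8 were called higher, Krt18 and Cldn7 lower, and 3 were not called (adjusted p under 0.05, edgeR). Of all tested genes 20.2% were called higher and 18.7% lower. Sums were scaled by library total alone, and CPM values of single genes by composition as well. Of 8 fibroblast markers only Pdgfra and Col1a1 reached 1 CPM, and Dcn, Lum and Thy1 had no count in any library. Pdgfra averaged 49.2 ± 2.13 CPM with NETs and 45.4 ± 3.37 CPM in control medium and was not called (adjusted p = 0.164, edgeR). The list summed to 57.4 to 67.0 CPM in NET libraries and 44.1 to 50.3 CPM in control libraries. Of 12 leukocyte and neutrophil markers only S100a8 reached 1 CPM and 6 had no count, with sums of 2.57 to 2.92 CPM in NET libraries and 1.58 to 1.96 CPM in control libraries. S100a8, a calprotectin subunit gene, was 1.91-fold higher at 2.63 ± 0.148 CPM with NETs against 1.38 ± 0.300 CPM in control medium (adjusted p = 0.00136, edgeR). Ptprc, the pan-leukocyte gene, had no count in the 3 NET libraries and 6, 2 and 8 counts in the control libraries. Of 6 endothelial markers only Cdh5 reached 1 CPM, and the list summed to 14.0 to 16.5 CPM in NET libraries and 12.7 to 14.4 CPM in control libraries.

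With NETs in the medium the cells expressed about 5 times more Snai1 and somewhat more Zeb2, while Twist1 did not pass the test and Snai2, Zeb1 and Cdh2 stayed at or near 0 counts in both media. On the epithelial side Cdh1 was 1.10-fold lower, and neither Esrp1 nor Grhl2 passed the test. Vim remained a low-level transcript. Of the 10 genes, 7 passed the filter on low counts. By the quasi-likelihood test of edgeR, adjusted by Benjamini and Hochberg's method over 13956 genes, 2 of these 7 were called higher and 1 lower, where 20.2% of all tested genes were called higher and 18.7% lower, or 38.9% in either direction. The median log2 fold change was 0.05 over the 7 genes and -0.0039 over all tested genes. As a share, 3 of 7 is near the background, and what follows describes the genes singly.

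Snai1, the SNAIL gene, had 35.5, 44.0 and 36.6 CPM in NET libraries 1 to 3, scaled by library size and composition, against 6.76, 8.40 and 8.13 CPM in control libraries 1 to 3. Every NET library stood above every control library, and the lowest of them was far above the highest control. The groups of 4 of the 7 tested genes did not overlap, as was so at 49.0% of all tested genes. Snai1 averaged 38.7 ± 4.66 CPM with NETs and 7.77 ± 0.879 CPM in control medium (mean ± SD, n = 3 each), a log2 fold change of 2.32 ± 0.10 (SE) or 4.99-fold (adjusted p = 2.68e-11, edgeR). By size this was rise number 119 among 13956 tested genes, and 3.65% of tested genes passed the test with a rise of at least 2-fold. In bulk RNA a higher level in each cell and more cells expressing the gene cannot be told apart. Snai1 lies on the plus strand at positions 167380115 to 167384734 of chromosome 2 in the coordinates of the deposited table. Its exons overlap no other gene there.

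Zeb2, which encodes the ZEB factor also called SIP1 for its binding to SMAD proteins, had 11.9, 10.7 and 10.1 CPM in NET libraries, against 7.95, 4.67 and 7.59 CPM in control libraries. The groups did not overlap, but control replicate 2 was well below the other two control libraries. The means were 10.9 ± 0.915 CPM with NETs and 6.74 ± 1.80 CPM in control medium, a log2 fold change of 0.68 ± 0.16 (SE) or 1.601-fold (adjusted p = 0.00492, edgeR). Without control replicate 2 the log2 fold change was 0.48 and the call held (adjusted p = 0.00351, with 2.39e-08 to 0.0162 over the 15 alternatives tried). Zeb2 lies on the minus strand at 44873644 to 45007407 of chromosome 2, and its exons overlap the antisense gene Zeb2os and an unnamed gene model on the other strand, which had no count. Zeb2os had 24, 4 and 24 counts in NET libraries and 22, 21 and 10 counts in control libraries, against 323 to 532 counts for Zeb2 in NET libraries and 211 to 529 in control libraries. How strand was treated in counting was not stated in the sources used here, so reads of the pair may not be fully separated.

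Twist1 was expressed at similar values in both media. It had 22.2, 25.8 and 26.4 CPM in NET libraries, against 23.6, 23.3 and 24.8 CPM in control libraries. The groups overlapped, with NET library 1 the lowest of all 6. The log2 fold change was 0.05 with a 95% interval from -0.10 to 0.21 (adjusted p = 0.612, edgeR). Its sign turned with scaling by library size alone (-0.014).

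The remaining EMT factors were not detectable or nearly so at this depth. Snai2, the SLUG gene and close relative of Snai1, had 0 counts in all 6 libraries. Taking 3 fragments, or 6 counts because the mates of a pair appear to have been counted separately, as the most that a count of 0 allows, its level was at most 0.0463 CPM over the NET libraries and 0.0368 CPM over the control libraries, for counting error only. Zeb1 had 3, 0 and 4 counts in NET libraries and 2, 0 and 0 counts in control libraries. No library of either group passed the 6-count limit, and Zeb1 did not pass the filter on low counts, so it was not tested. With no filter its log2 fold change, from these few counts, was 1.95 (adjusted p = 0.511, edgeR). The ZEB transcripts of these cells were thus nearly all from Zeb2, which held 98.9, 100 and 98.5% of the family's length-scaled level in NET libraries and 99.3, 100 and 100% in control libraries.

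Stretches before the start sites of the 3 EMT factor genes that were expressed are shown because Snai1 and Zeb2 rose while Twist1 did not pass the test. They are from RefSeq on build GRCm38.p6, 250 bases each, 5′ to 3′ on the strand of the gene, from chr2:167537945-167538194 (plus strand) for Snai1, chr2:45110278-45110527 (minus strand) for the fourth of 4 listed Zeb2 starts, the one with a match, and chr12:33957421-33957670 (plus strand) for Twist1. Capitals mark CAGGTG or its reverse complement CACCTG in Snai1, TGACTCA or TGAGTCA in Zeb2, and CAGACA in Twist1.
Snai1: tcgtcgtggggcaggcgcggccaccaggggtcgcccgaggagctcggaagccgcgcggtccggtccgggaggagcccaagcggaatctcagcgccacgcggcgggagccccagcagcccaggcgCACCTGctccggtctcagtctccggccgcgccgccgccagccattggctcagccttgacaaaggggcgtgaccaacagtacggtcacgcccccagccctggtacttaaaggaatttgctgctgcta
Zeb2: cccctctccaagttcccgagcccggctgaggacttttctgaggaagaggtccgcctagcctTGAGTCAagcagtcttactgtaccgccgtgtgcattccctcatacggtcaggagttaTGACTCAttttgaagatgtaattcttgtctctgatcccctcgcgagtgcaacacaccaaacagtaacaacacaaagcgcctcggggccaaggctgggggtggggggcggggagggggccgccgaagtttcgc
Twist1: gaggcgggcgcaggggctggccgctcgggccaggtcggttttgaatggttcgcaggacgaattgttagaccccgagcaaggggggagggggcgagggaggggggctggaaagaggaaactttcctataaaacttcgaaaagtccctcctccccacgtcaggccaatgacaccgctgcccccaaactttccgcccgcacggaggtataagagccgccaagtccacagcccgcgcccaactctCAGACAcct

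Windows were found for 4 of the 10 genes (Snai1, Zeb2, Twist1 and Vim), and 6 motifs were searched in them on both strands. The general E-box CANNTG was found once, in the Snai1 window, starting 126 bases before the start site. Read on the opposite strand it has the form CAGGTG that SNAIL and ZEB proteins bind, so this is one match under both motifs. CANNTG occurs in 66.2% and CAGGTG in 17.2% of the 32851 windows of the table. The AP-1 element TGACTCA was found at 2 places in the fourth Zeb2 window, 189 and 132 bases before the start, and in 4.46% of all windows. CAGACA, which holds the short SMAD element, was found in the Twist1 window 9 bases before the start and in 17.1% of all windows. None of the 7 windows of the 4 genes held the palindromic SMAD element GTCTAGAC (0.167% of all windows) or the Grainyhead element AACCGGTT (0.116%). These matches describe letters in a window and do not show binding.

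**Figure D1:**
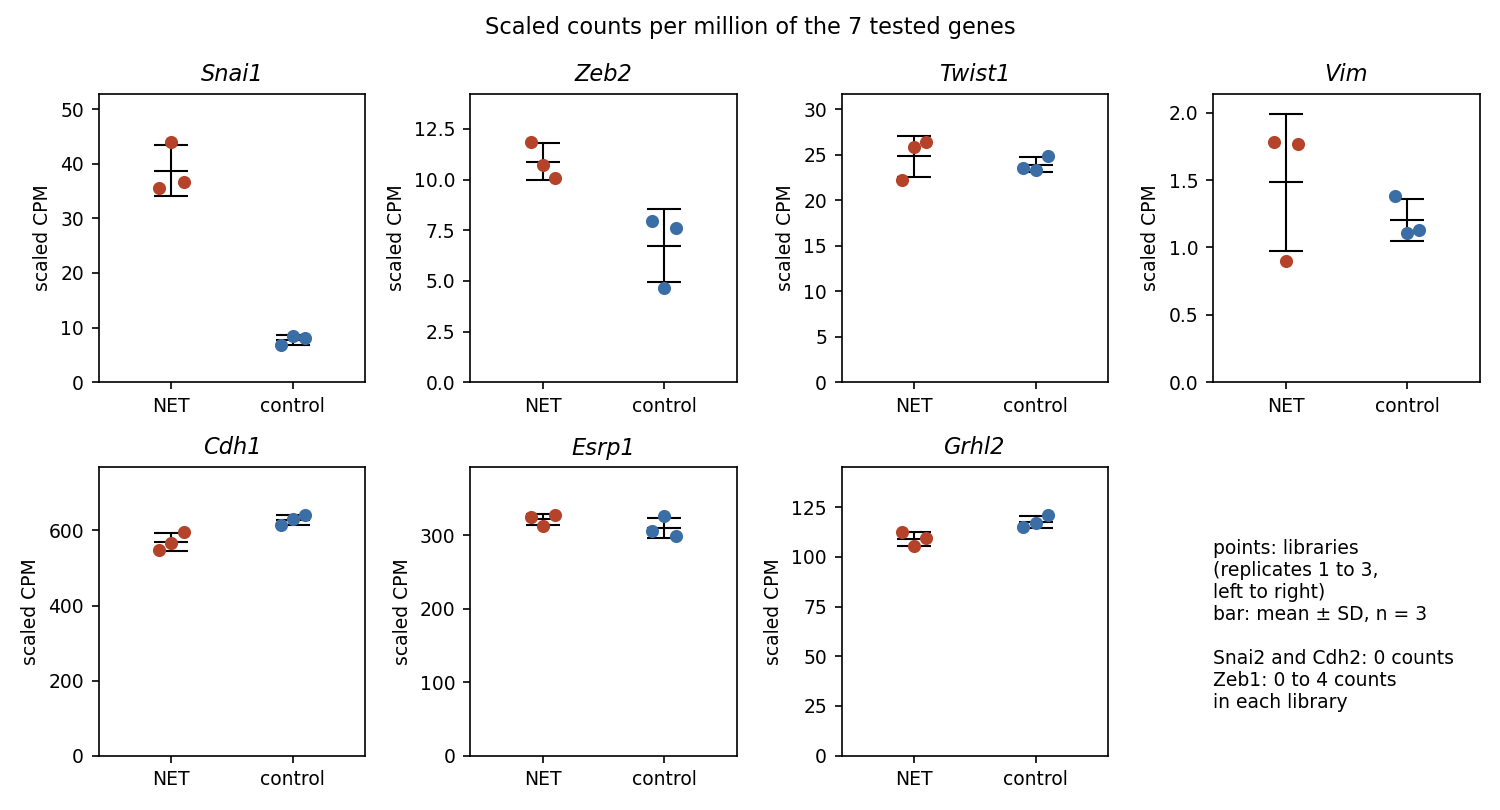
Scaled CPM (vertical axes, each from 0) of the 7 tested genes in the 3 NET and 3 control libraries, with the mean and SD of each group (n = 3). Snai1 and Zeb2 stand higher in every NET library, Cdh1 and Grhl2 slightly lower, and the groups of Twist1, Vim and Esrp1 overlap.

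Of the mesenchymal markers, Vim, the vimentin gene, was a low transcript in both media. It had 1.78, 0.897 and 1.76 CPM in NET libraries, against 1.38, 1.11 and 1.13 CPM in control libraries, from 27 to 91 counts in NET libraries and 50 to 92 counts in control libraries. NET library 2 was the lowest of all 6 and the other two NET libraries were the highest. The log2 fold change was 0.32, with a 95% interval from -0.24 to 0.89 (adjusted p = 0.373, edgeR). Without NET replicate 2 it was 0.55 (adjusted p = 0.0832, the lowest over the 15 alternatives, which ran up to 0.712). Cdh2 had 0 counts in all 6 libraries, with the same limits as Snai2.

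Cdh1, the E-cadherin gene, was the most highly expressed of the 10. It had 547, 566 and 596 CPM in NET libraries, against 615, 631 and 641 CPM in control libraries. The NET libraries were all below the control libraries, by a narrow gap. The log2 fold change was -0.14 ± 0.05 (SE; adjusted p = 0.0281, edgeR). The call was lost without NET replicate 1 or 2 or control replicate 2 or 3, with log2 fold changes of -0.12, -0.14, -0.14 and -0.13 (adjusted p = 0.120, 0.0647, 0.0628 and 0.0629, against 0.00137 to 0.120 over the 15 alternatives). Cdh1 lies on the plus strand of chromosome 8 at 107329983 to 107396878 in the table's coordinates, with no overlapping gene.

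Grhl2 had 112, 105 and 110 CPM in NET libraries, rounded to whole CPM, against 115, 117 and 121 CPM in control libraries. The NET libraries were again all lower, but the gene did not pass the test after adjustment (log2 fold change -0.11, 95% interval from -0.21 to -0.0048, adjusted p = 0.0917, edgeR). It passed with upper-quartile factors (-0.13, adjusted p = 0.0394) and with library size alone (-0.175, adjusted p = 0.00799), of 15 alternatives whose adjusted p went up to 0.252. Exons of Grhl2 overlap the antisense gene Gm16136, which had 103, 52 and 118 counts in NET libraries and 244, 144 and 257 counts in control libraries, while Grhl2 itself had 3173 to 5660 counts in NET libraries and 5290 to 7648 in control libraries.

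Esrp1 had 324, 313 and 327 CPM in NET libraries, against 306, 326 and 299 CPM in control libraries. The groups overlapped, with control library 2 among the NET values. The log2 fold change was 0.05, with a 95% interval from -0.05 to 0.16 (adjusted p = 0.437, edgeR), and its sign turned with library size alone (-0.017).

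Divided by the exon length listed for each gene and scaled to a fixed total (TPM), the 10 genes differed widely in level. That length covers all exons listed for a gene, from 1621 bases for Snai1 to 20203 for Zeb2, and is not that of 1 transcript. The order of the genes may therefore depend in part on the annotation. Cdh1 was first with 471 ± 19.7 TPM in NET libraries and 539.5 ± 3.56 TPM in control libraries, and Esrp1 second with 193 ± 7.96 TPM with NETs and 193 ± 9.52 TPM in control medium. Twist1 had 57.6 ± 4.59 TPM with NETs and 57.6 TPM in control medium. Grhl2 had 47.9 ± 2.49 TPM with NETs and 53.6 ± 0.632 TPM in control medium, below Twist1 in every library. Snai1 had rank 3 with NETs at 90.1 ± 9.09 TPM, and rank 5 in control medium at 18.8 ± 1.93 TPM. Zeb2 stood at 2.04 ± 0.197 TPM with NETs and 1.31 ± 0.354 TPM in control medium, and Vim at 1.19 ± 0.421 TPM with NETs and 0.998 ± 0.142 TPM in control medium. The levels of Zeb2 and Vim did not overlap with NETs and overlapped in control medium. Among the 7 tested genes no other neighbours in the order overlapped. The ratio of Snai1 to Twist1 TPM was 1.603, 1.712 and 1.389 in NET libraries, against 0.288, 0.362 and 0.329 in control libraries, so that Snai1 was the higher of the pair in every NET library and the lower in every control library.

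**Figure D2:**
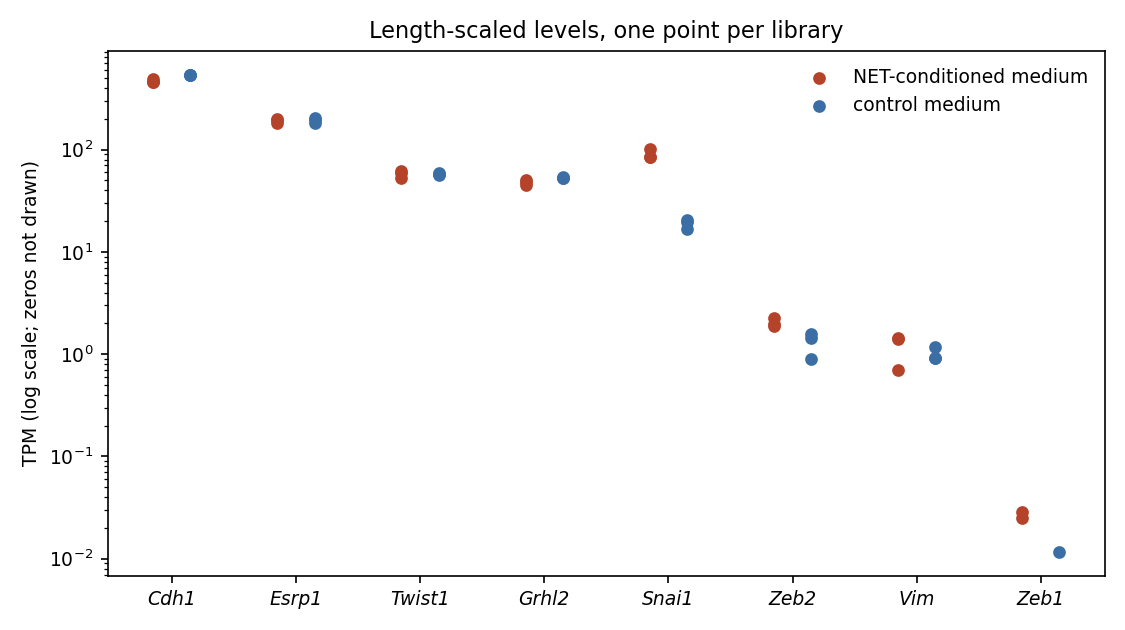
Length-scaled level (TPM, log axis, values of 0 not drawn) of 8 of the genes, 1 point per library, ordered by the level in control medium. Snai1 lies above Twist1 and Grhl2 with NETs and below both in control medium, while Zeb2, Vim and Zeb1 form the low end.

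Paralogs of these genes did not all follow them. Snai3, another SNAIL family gene, averaged 1.70 ± 0.209 CPM with NETs and 2.31 ± 0.373 CPM in control medium (adjusted p = 0.0990, edgeR). Snai1 made up 95.1, 96.8 and 95.4% of the SNAIL family's TPM in NET libraries, against 76.3, 75.5 and 79.6% in control libraries. Both Grainyhead paralogs, which were low transcripts, were called lower, as were 18.7% of all tested genes. Grhl1, which acts in epidermal barrier formation, was 1.84-fold lower at 2.55 ± 0.258 CPM with NETs against 4.74 ± 0.694 CPM in control medium (adjusted p = 2.29e-04, edgeR). Grhl3, also an epidermal factor, was 2.05-fold lower at 1.46 ± 0.263 CPM with NETs against 2.99 ± 0.602 CPM in control medium (adjusted p = 7.06e-04, edgeR). Grhl2 remained the main transcript of that family, with 93.6, 92.4 and 92.4% of its TPM in NET libraries and 89.1, 86.2 and 87.7% in control libraries. Esrp2 averaged 51.6 ± 3.33 CPM with NETs and 46.9 ± 3.94 CPM in control medium and did not pass (adjusted p = 0.103). Twist2 had no count in any library.

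**Figure D3:**
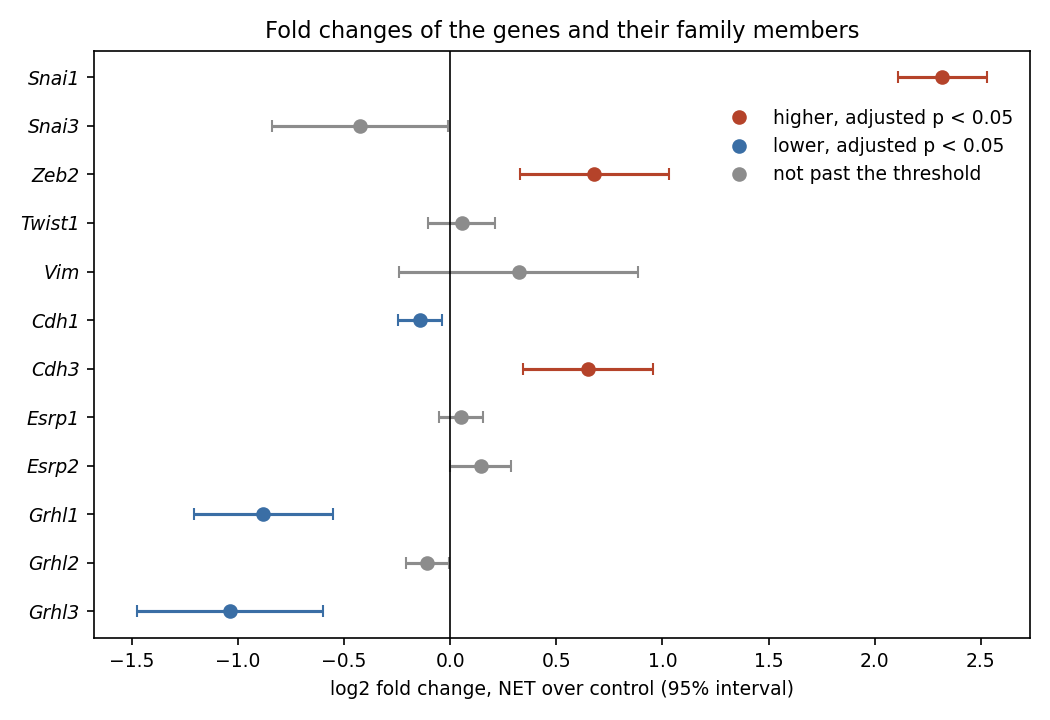
Log2 fold change of NET over control medium with its 95% interval for the tested genes, their tested paralogs and the P-cadherin gene Cdh3. Snai1 and Zeb2 lie to the right of 0, Grhl1 and Grhl3 to the left, and Cdh1 just below 0.

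Of 18 other transcription factors linked to the transition, 17 were found and 13 were tested. Of these 6 rose and 1 fell, beside 20.2% and 18.7% of all tested genes, with a median log2 fold change of 0.08. By fold, the greatest rises were those of Klf8, Sox4 and Zbtb38. Klf8, a repressor of Cdh1, was 3.23-fold higher at 16.6 ± 0.570 CPM with NETs against 5.13 ± 0.375 CPM in control medium (adjusted p = 3.40e-10). Sox4, a TGF-beta-induced factor, was 2.64-fold higher at 783 ± 16.2 CPM with NETs against 297 ± 18.2 CPM in control medium (adjusted p = 1.84e-12). Zbtb38, a zinc-finger gene, stood 2.50-fold higher at 363 ± 9.48 CPM with NETs against 145 ± 11.4 CPM in control medium (adjusted p = 1.20e-11). Among 23 tested co-repressors and regulators of the SNAIL and ZEB proteins 9 rose and 0 fell (2 fell with library size alone, and 1 with upper-quartile factors), and the median log2 fold change was 0.09. The share of calls in either direction is near the 38.9% of all tested genes. All calls on this list were rises, where 20.2% of all tested genes rose and 18.7% fell. Ajuba, a LIM protein that acts as a SNAIL co-repressor, was 1.76-fold higher at 180.2 ± 3.67 CPM with NETs against 102 ± 6.66 CPM in control medium. The kinase gene Csnk1e rose 1.51-fold, the deubiquitinase gene Usp27x 1.43-fold, and Kdm1a, the histone demethylase recruited by SNAIL, 1.26-fold to 324 ± 6.78 CPM with NETs against 257 ± 13.4 CPM in control medium.

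Of 16 tested epithelial transcription and splicing factors other than Esrp1 and Grhl2, 8 fell, 1 rose and 7 did not pass the test. Their median log2 fold change was -0.22, and 18.7% of all tested genes fell and 20.2% rose. Elf3, an ETS factor of epithelial cells, stood 2.37-fold below control, with 33.8 ± 2.24 CPM with NETs against 80.0 ± 1.85 CPM in control medium (adjusted p = 3.52e-11), and the others that fell, besides Grhl1 and Grhl3, were Klf5, Rbm47, Klf4, Ovol1 and Foxa1. The gene that rose was Elf5, a mammary alveolar factor, with 10, 20 and 26 counts in NET libraries and none in the control libraries. It was at least 11.7-fold higher against the 6-count limit over the control group. Elf5 passed the filter on low counts only through the NET libraries, so this count of rises does not stand for the whole list. No gene of the list was called higher with the filter of 1 CPM or with halved counts. Ehf, the most highly expressed of the list, averaged 144 ± 1.71 CPM with NETs and 154 ± 10.6 CPM in control medium and did not pass (adjusted p = 0.170).

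Epithelial genes known as targets of SNAIL, ZEB or GRHL2 proteins moved both ways. All 24 were tested, 12 fell and 5 rose, beside 18.7% and 20.2% of all tested genes, and the median log2 fold change was -0.15. The 3 changes largest by fold were those of the tight junction genes Tjp3, Cldn4 and Cldn1. Tjp3 was 2.45-fold lower at 38.8 ± 1.16 CPM with NETs against 94.9 ± 5.26 CPM in control medium, Cldn1 was 1.76-fold lower at 5.54 ± 0.693 CPM with NETs against 9.69 ± 0.609 CPM in control medium, and Cldn4 was 2.09-fold higher at 789 ± 12.3 CPM with NETs against 378 ± 50.6 CPM in control medium. Other genes of tight junctions and their polarity partners on the list were named after their values were seen. Ocln, Marveld2, Marveld3, Cldn7, Crb3 and Llgl2 fell, Patj rose 1.10-fold (adjusted p = 0.0309, edgeR), and Cldn3 and Pals1 did not pass. Krt18, a keratin of simple epithelia and the most abundant of the list, was 1.21-fold lower at 984 ± 36.4 CPM with NETs against 1190.0 ± 45.6 CPM in control medium. The list of the cadherin-catenin complex left out Cdh1, which was called lower, and Cdh2. Of its 9 tested genes 8 rose (6 with library size alone) and 1 fell, beside 20.2% and 18.7% of all tested genes. The median log2 fold change was 0.27. Among the 8 was Cdh5, the endothelial cadherin gene, whose groups overlapped. Jup, the plakoglobin gene, was 1.59-fold higher at 612 ± 10.9 CPM with NETs against 384 ± 19.7 CPM in control medium, Ctnnb1, the beta-catenin gene, 1.28-fold higher at 1064 ± 36.4 CPM with NETs against 829 ± 25.1 CPM in control medium, and Cdh3, the P-cadherin gene, 1.57-fold higher at 4.41 ± 0.0367 CPM with NETs against 2.82 ± 0.349 CPM in control medium. Ctnnal1 was 1.39-fold lower. Jup, Ctnnb1, Cdh3 and Ctnnal1 each passed with an adjusted p of 0.00175 (Cdh3) or less in edgeR.

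Mesenchymal effector genes other than Vim and Cdh2 were often near 0, and most that passed the filter rose. Of 24 listed 13 did not pass the filter on low counts, among them the fibroblast genes Dcn, Lum and Thy1 with no count at all. Of the 11 tested 8 rose and 2 (S100a4 and Mmp3, noted after their values were seen) fell, beside 20.2% and 18.7% of all tested genes, with a median log2 fold change of 1.19, and since a gene could pass that filter through the NET libraries alone, these counts do not stand for the whole list. Col1a1, a type I collagen chain gene, was 11.3-fold higher at 13.4 ± 2.48 CPM with NETs against 1.18 ± 0.129 CPM in control medium, and Fgfr1, a fibroblast growth factor receptor gene, 9.24-fold higher at 3.53 ± 0.913 CPM with NETs against 0.384 ± 0.0185 CPM in control medium. Fn1, the fibronectin gene, was 1.33-fold higher at 3477 ± 125 CPM with NETs against 2604 ± 62.6 CPM in control medium. Col1a1 also stands on the fibroblast marker list, of which Dcn, Lum and Thy1 were at 0 in every library. Pdgfra of that list was expressed in both media, at 49.2 CPM with NETs and 45.4 CPM in control medium.

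Among the other intermediate filament genes and vimentin partners 2 of 4 tested genes rose (20.2% of all tested genes), Synm and Plec. Synm, at 0.440 CPM with NETs and 0.143 CPM in control medium, passed the filter on low counts only through the NET libraries. The count of rises therefore does not stand for the whole list. Plec, the plectin gene, rose 1.69-fold to 599 ± 63.9 CPM with NETs against 355 ± 34.3 CPM in control medium. Lmna, the lamin A gene and the most abundant of the tested genes, did not pass (adjusted p = 0.150, edgeR). Genes whose exons ESRP proteins regulate showed small differences in their total counts, which carry no information on splice forms. Of 12 tested 4 rose and 1 fell, or 2 and 4 with library size alone, a share near the 38.9% of all tested genes called. Fgfr2, whose epithelial splice form depends on ESRP proteins, was 1.38-fold lower at 157 ± 3.09 CPM with NETs against 217 ± 4.02 CPM in control medium, Ctnnd1 and Enah rose 1.16-fold and 1.14-fold, and Cd44, the most abundant of the list, had 675 ± 2.92 CPM with NETs and 721 ± 16.1 CPM in control medium (adjusted p = 0.106). The 7 genes listed for the Mir200 family and Mir205 (its host transcript Mir205hg among them), whose short RNAs repress Zeb1 and Zeb2, had no count in any library, and mature miRNAs are not measured by mRNA libraries.

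**Figure D4:**
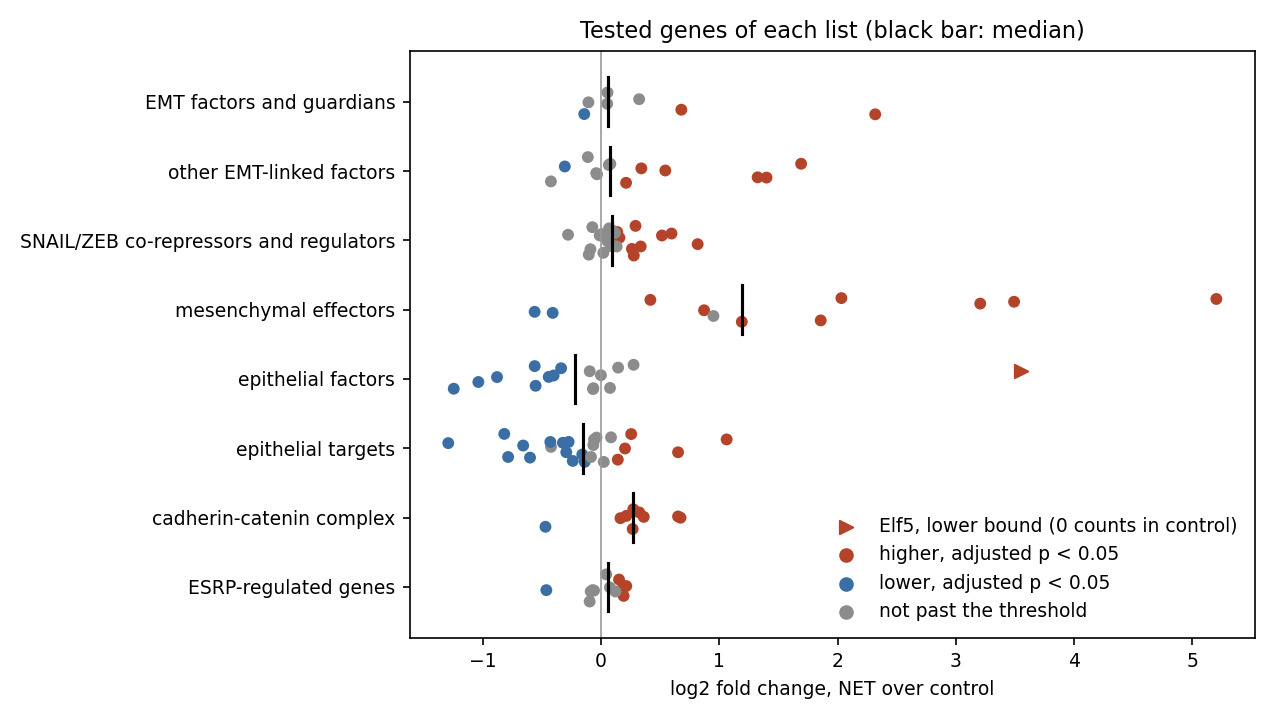
Log2 fold change of NET over control medium for every tested gene of 8 lists, coloured by the outcome of the test, with the median of each list as a black bar. The mesenchymal effectors have a median of 1.19 and the epithelial factors one of -0.22, and Elf5, with no count in control medium, is drawn at its lower bound.

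By the root mean square distance between log2 CPM values centred on the control mean, over the 6 libraries in 2 groups, the tested genes nearest to Snai1 were P2ry6, a nucleotide receptor gene (distance 0.119), Atp2b4, a plasma membrane calcium pump gene (0.150), and Adgrg1, an adhesion receptor gene (0.156). P2ry6 had 10.6 ± 0.683 CPM with NETs and 1.85 ± 0.119 CPM in control medium, Atp2b4 had 63.1 ± 3.64 CPM with NETs and 13.4 ± 0.848 CPM in control medium, and Adgrg1 had 59.9 ± 2.20 CPM with NETs and 12.3 ± 0.535 CPM in control medium. With 2 groups this distance mostly reflects the size of the difference between media.

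**Figure D5:**
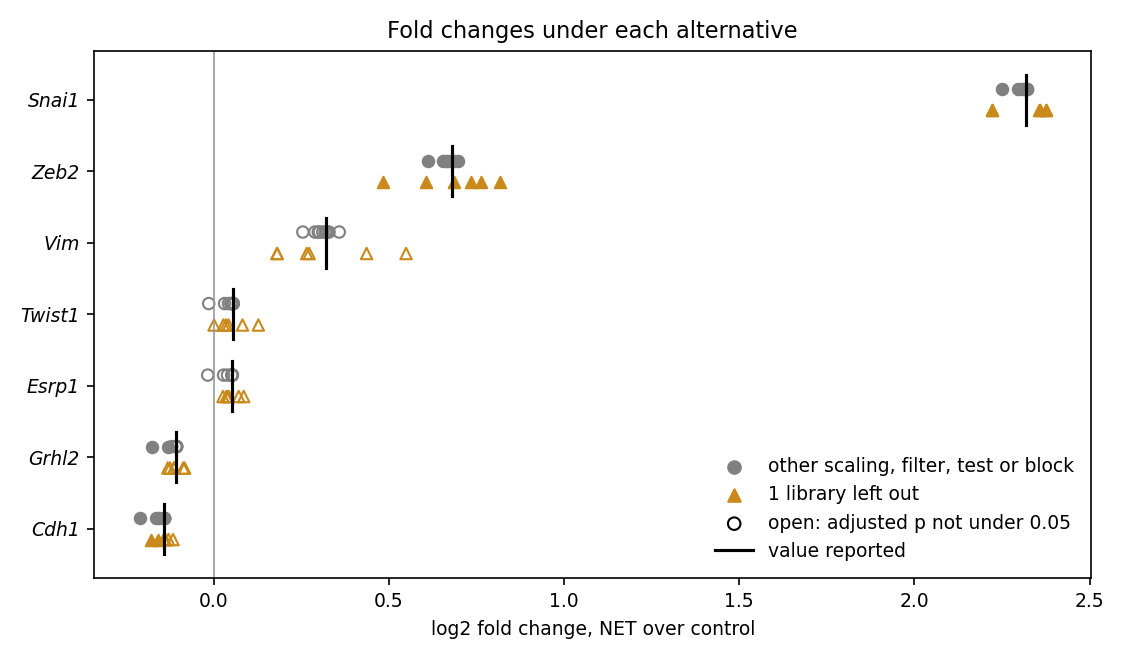
Log2 fold change of the 7 tested genes under 15 alternatives, with left-out libraries as triangles and other settings as circles, open where the adjusted p was not under 0.05 and with the reported value as a black line. Snai1 and Zeb2 were called under each of them, Cdh1 under 11 and Grhl2 under 2, and Vim, Twist1 and Esrp1 under none.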

How the data were processed

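The authors deposited 1 table of read counts per gene symbol with exon positions and lengths. Per the submitters' processing notes, reads were aligned with STAR 2.7.10a to mm10 and counted with featureCounts of Subread 2.0.3. Strand setting and annotation release: not given in the sources used here. Of 38929 symbols compared, 11.6% overlapped their mm10 position, so the table's coordinates follow a build that is not named here. Between 74.8% and 78.4% of counts from 1 to 20 were even, so the mates of a pair appear to have been counted separately.

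Counts were used as deposited. Low-count genes were dropped with filterByExpr (minimum count 10), libraries were scaled by TMM, and groups were compared with edgeR 4.0.16 in R 4.3.3 (glmQLFit, robust, with the medium as the single term). P-values were adjusted over the 13956 genes tested, with 0.05 as the threshold. Each standard error was derived from the F statistic and the log2 fold change. TPM values were computed from counts and lengths without TMM. The test was tried on simulated counts first.

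The 10 genes, the 13 lists, the motifs and the tests were chosen with earlier results of these data known. Of 168 symbols on the lists 167 were found. The text names all 10 genes and, per list, up to 3 called genes with the largest change (mean of at least 1 CPM) and the most abundant tested gene. A gene that this rule names is not reported here. For Snai1 it names the 3 nearest genes (mean 5 CPM or more), with 0.5 CPM added before taking logs. The other genes that fell among epithelial factors, the paralogs Snai3, Esrp2 and Twist2, Elf5, Synm, S100a4 and Mmp3 were named after their values were seen. Exons of Elf3, Tjp3, Csnk1e, Ctnnb1, Fgfr1, Fn1, Cd44, Pdgfra, Esrp2, Ovol1, Rbm47, Synm and Twist2 overlap genes on the other strand, so their values are uncertain. The same holds for Krt7, Krt8, Cldn3 and Crb3. Exons of Fgfr2, Plec, Ctnnd1, Ctnnb1, Pdgfra, Rbm47, S100a4 and Zeb2 overlap genes on the same strand, which also limits their values. A planned comparison of protein sequences was not made. No 2 libraries of a group agreed within counting noise (chi-square per degree of freedom of 9.66 to 25.2), and each was counted as 1 replicate.

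Alternatives were other scalings (RLE, upper-quartile, library size alone), no filter, at least 1 CPM in 3 libraries, DESeq2 1.42.0, limma-voom (limma 3.58.1), the replicate number as a block, halved counts, and each library left out in turn.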

Additional observations from a re-analysis of the deposited data

How the results depend on the processing

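Among all tested genes, 2825 rose and 2605 fell (52.0% of called genes higher), against 2106 and 3763 with library size alone (35.9% higher), a scaling that moved the median log2 fold change of all genes to -0.07. With upper-quartile factors 46.1% of called genes were higher. Of the 10 genes, 2 rose under each of the 15 alternatives, with log2 fold changes of 2.22 to 2.37 for Snai1 and 0.48 to 0.82 for Zeb2. The count that fell was 1, against 2 with upper-quartile factors and 2 with library size alone, where Grhl2 joined Cdh1, and 0 to 1 when a library was left out. Twist1 (-0.014) and Esrp1 (-0.017) changed sign with library size alone without passing the test. The cause of these changes was not tested. With the replicate number as a block 2969 genes rose and 2713 fell, and of the 10 genes again 2 rose and 1 fell. Deviations of same-numbered libraries from their group means correlated with r = 0.19, -0.10 and 0.10, so the numbers were not taken to pair the libraries. Without division by length Grhl2 had rank 3 in both groups, above Snai1 and Twist1. Depth limits statements on Snai2, Zeb1 and Cdh2, and 27 to 92 counts per library limit those on Vim. Counts of called genes in the lists that moved by over 1.5 times were, against the reported ones, 2 against 1 lower for other EMT factors (upper-quartile factors, library size alone), 1 and 2 against 0 lower for co-repressors (the same scalings), 0 against 1 higher for epithelial factors (1 CPM filter, halved counts) and 2 against 1 (without NET or control replicate 2), and 1 against 2 lower for mesenchymal effectors (without NET or control replicate 2). They were 1 against 2 higher for filament genes (1 CPM filter, halved counts), 2 against 4 higher for ESRP-regulated genes (library size alone, no filter, without control replicate 3), and 2 and 4 against 1 lower for these (upper-quartile factors, library size alone). Mammary epithelial markers had 4 against 2 lower with library size alone and 1 without NET replicate 1 or 3 or control replicate 2, leukocyte markers 2 against 0 lower with no filter, and endothelial markers 0 against 1 higher with library size alone and without NET replicate 2 or 3 or control replicate 1 or 2.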

Other observations

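The cadherin family as a whole was looked at after the values were seen. Of 23 genes with a Cdh symbol and a number, Cdh1, Cdh2 and the cadherins of the list above among them, 9 had no count in any library. Of the 7 tested, 4 rose, 1 fell and 2 did not pass (median log2 fold change 0.46). Beside these, 20.2% of all tested genes were called higher and 18.7% lower. The largest rise was that of Cdh10, a type II cadherin gene best known from the nervous system. It had 9.46, 8.60 and 8.02 CPM in NET libraries, against 3.05, 2.54 and 2.996 CPM in control libraries. The groups did not overlap, as was so at 49.0% of all tested genes. The means were 8.70 ± 0.722 CPM with NETs and 2.86 ± 0.279 CPM in control medium, or 3.02-fold higher (adjusted p = 2.71e-08, edgeR, higher in 3 of 3 NET libraries). Cdh24, another type II cadherin gene, was 1.38-fold higher at 12.5 ± 0.569 CPM with NETs against 9.08 ± 0.564 CPM in control medium (adjusted p = 7.67e-04). Cdh5, the endothelial cadherin gene, was 1.21-fold higher at 15.8 ± 1.49 CPM against 13.0 ± 0.950 CPM, although its groups overlapped (adjusted p = 0.0267), and the call was lost with library size alone and without NET replicate 2 or 3 or control replicate 1 or 2. The defining endothelial genes Pecam1, Kdr and Tek were at under 0.1 CPM on average in both groups. Of the cadherins of the classic switch, Cdh2 was among the 9 with no count. Cdh1 had 570 ± 24.5 CPM with NETs and 629 ± 13.2 CPM in control medium.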
